A study of Mus musculus with 16 samples.

Results

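The Hsd3b genes encode the 3-beta-hydroxysteroid dehydrogenase family. Its members were taken as every probe set, the unit of measurement of the array, that is paired with the symbol Hsd3b1, Hsd3b2, Hsd3b3, Hsd3b5, Hsd3b6 or Hsd3b7. This gave 8 of the 35519 probe sets in the value table, 1 for each of the 6 genes and 2 that are shared by Hsd3b4, Hsd3b5 and Gm10681. The shared pair held identical values on every array and was counted once, which left 7 distinct probe sets. The family was chosen with these values known, and Hsd3b5 in particular was known for its fall on fasting. The levels and changes of the members below are therefore a description, given with standard errors and without p-values.

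The livers came from male mice, on a background mixed from Sv129/C57Bl/6, that were either wild-type or knockout for PPARβ/δ, the fatty acid-sensing nuclear receptor encoded by Ppard. Mice of each genotype were fed or were fasted for 24 h, and each mouse was measured on 1 Affymetrix whole-transcript array. Wild-type mice gave 4 fed and 5 fasted livers and knockout mice gave 4 fed and 3 fasted livers, 16 arrays in all. The labels call the mice biological replicates, and they do not say which part of Ppard was deleted or whether the wild-type mice were littermates.

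Most enzymes of this family oxidise the 3-beta-hydroxyl group of delta-5 steroids and shift the double bond, which is an obligatory step in making progesterone, androgens, glucocorticoids and mineralocorticoids. Hsd3b1 is the form of the mouse adrenal gland and gonads, and Hsd3b6 is known from placenta and skin and from the adrenal zona glomerulosa. Hsd3b2 and Hsd3b3 are forms found in liver and kidney. Hsd3b5 is a liver form expressed in males, which works as a 3-ketosteroid reductase on steroids such as dihydrotestosterone, and its male pattern depends on pulsatile growth hormone acting through STAT5. Hsd3b7 stands apart from the others, since its substrates are 7-alpha-hydroxylated sterols and it serves bile acid synthesis.

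Hsd3b4, Gm10681, Hsd3b5, Hsd3b2, Hsd3b3, Hsd3b6 and Hsd3b1 follow each other in this order on chromosome 3, and Hsd3b7 lies on chromosome 7. All 6 members have promoter windows in RefSeq (assembly GRCm38.p6). The 250 bases before the annotated start are shown for the 3 members with the widest changes between groups, on which the results below turn. The windows are chr3:98645535-98645784 for Hsd3b5, chr3:98763129-98763378 for Hsd3b3 and chr3:98724544-98724793 for Hsd3b2, all read 5′ to 3′ on the minus strand. Capitals mark bases that are identical in the best local alignment, between Hsd3b5 and Hsd3b3 in the first and second line, and to Hsd3b5 in the third.
Hsd3b5: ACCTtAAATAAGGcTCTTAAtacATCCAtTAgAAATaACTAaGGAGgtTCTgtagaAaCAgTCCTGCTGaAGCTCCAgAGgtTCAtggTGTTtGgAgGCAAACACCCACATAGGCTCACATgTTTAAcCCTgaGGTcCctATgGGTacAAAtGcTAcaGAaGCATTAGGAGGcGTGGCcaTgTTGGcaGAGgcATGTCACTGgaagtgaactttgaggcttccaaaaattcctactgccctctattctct
Hsd3b3: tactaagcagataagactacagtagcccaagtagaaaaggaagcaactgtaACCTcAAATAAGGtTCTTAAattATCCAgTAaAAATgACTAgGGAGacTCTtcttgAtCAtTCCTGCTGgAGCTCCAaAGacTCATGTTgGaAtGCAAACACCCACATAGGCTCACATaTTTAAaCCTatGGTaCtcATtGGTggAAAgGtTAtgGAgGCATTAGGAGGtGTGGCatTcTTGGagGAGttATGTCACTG
Hsd3b2: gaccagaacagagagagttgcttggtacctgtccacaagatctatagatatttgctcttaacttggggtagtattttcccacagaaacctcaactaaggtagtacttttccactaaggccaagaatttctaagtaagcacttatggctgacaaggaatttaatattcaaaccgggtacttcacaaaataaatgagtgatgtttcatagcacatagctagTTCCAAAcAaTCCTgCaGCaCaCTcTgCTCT

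The Hsd3b5 and Hsd3b3 windows aligned over 202 columns, of which 151 were identical (74.8%). A second window listed for Hsd3b3 matched the first in 248 of 249 columns. The best alignment of Hsd3b2 to Hsd3b5 covered 31 columns, of which 23 were identical, and that of Hsd3b2 to Hsd3b3 covered 38 columns with 28 identical. The windows of Hsd3b4 and Gm10681, which share a probe set pair with Hsd3b5, were identical to each other over 221 bases and aligned with the Hsd3b5 window over 31 columns or fewer. A STAT5-type motif (TTCNNNGAA, searched on both strands) occurred in 7.02% of all 32851 promoter windows of this length. Among the members it was found in the windows of Hsd3b1 and Hsd3b7. The nuclear receptor element AGGTCA occurred in 14.0% of all windows and in none of the members' windows. A missing match says only that these letters are not in these bases.

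The arrays held liver RNA by their markers. All 7 measured hepatocyte markers were bright on every array, with a summed level of 14.38 to 14.58 log2 across the 4 groups. A dim limit of 2.61 log2, the 40th percentile of all probe set means, is used below as a guide to which probe sets carry little signal. Of 8 markers of adrenal cortex and other steroidogenic cells, 3 had a median above that limit. The summed level of the 8 ranged from 7.02 to 7.24 in wild-type fed, 7.16 to 7.40 in wild-type fasted, 6.86 to 7.49 in knockout fed and 6.90 to 7.32 in knockout fasted mice. Mrap, by far the brightest of them (6.236 to 6.955 over all arrays), weighs most in this sum, which therefore says little of the other markers. Knockout fed mouse 4 had the highest value of all arrays in 6 of the 8 markers, namely Star (4.46), Cyp11b1 (3.80), Cyp11a1 (3.06), Cyp11b2 (3.00), Cyp21a1 (2.48) and Mc2r (2.13). Its Hsd3b1, the adrenal form, was 1.95, the highest of its group (the others 1.70 to 1.94) but below wild-type fasted mice 4 (1.99) and 5 (2.12). All these Hsd3b1 values lay under the dim limit, and the part of the adrenal signal in the members' values was not tested. Summed pancreas markers, of which 4 of 8 had a median above the limit, were 8.51 in wild-type fasted mouse 5 and between 5.95 and 6.48 on every other array. Summed kidney tubule markers, of which 2 of 6 had a median above the limit, stayed between 5.20 and 5.51. Ppard itself read 5.10 ± 0.36 (SD, n = 4) in wild-type fed, 4.56 ± 0.10 (n = 5) in wild-type fasted, 4.71 ± 0.28 (n = 4) in knockout fed and 4.48 ± 0.11 (n = 3) in knockout fasted livers, and without the deleted part of the gene being known this probe set does not check the genotype. Knockout fed mice 1 and 4 stood apart from the other mice in an earlier analysis of these data, so the changes that use that group are also given without them for Hsd3b5, the shared pair, Hsd3b2, Hsd3b3 and Hsd3b7.

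Hsd3b5 was high in both fed groups and lowest in fasted wild-type livers. Its log2 intensity was 8.50, 8.30, 8.33 and 8.24 in the 4 wild-type fed mice. In the 5 wild-type fasted mice it was 5.48, 4.47, 4.76, 4.73 and 3.76. The fed knockout mice read 8.27, 8.42, 8.74 and 8.03, and the knockout fasted mice 7.89, 7.14 and 7.10. The fed groups overlapped, every knockout fasted mouse lay below every fed mouse, and every wild-type fasted mouse lay far below all of these. In order of group mean, knockout fed (8.37 ± 0.30, SD, n = 4) and wild-type fed (8.34 ± 0.11, n = 4) did not differ beyond their spread, and knockout fasted (7.38 ± 0.44, n = 3) and wild-type fasted (4.64 ± 0.62, n = 5) followed, each apart from the next. Since these are whole livers, fewer cells that express a gene and less RNA per cell cannot be told apart.

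Fasting changed Hsd3b5 in wild-type mice by -3.70 ± 0.25 log2 (SE of the limma fit), which is 13.0-fold lower. In knockout mice the change was -0.99 ± 0.29, or 1.98-fold lower. The fasting response in knockout mice was thus 2.72 ± 0.38 log2 less negative than in wild-type mice. Between genotypes, Hsd3b5 differed by 0.02 ± 0.27 in fed mice and was 2.74 ± 0.27 log2 higher in knockout mice after fasting (6.68-fold). These contrasts use the same 4 group means, so a low wild-type fasted group enters the fasting response, the genotype difference after fasting and the difference between responses alike. Without knockout fed mice 1 and 4 the change with fasting in knockout mice was -1.20, the difference between fed genotypes 0.24 and the difference between responses 2.50, and leaving out any single mouse gave 2.46 to 2.93 for the last.

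The probe set pair shared by Hsd3b4, Hsd3b5 and Gm10681 showed the same order of groups at a smaller size. It read 4.05, 4.00, 4.14 and 3.99 in wild-type fed and 2.49, 2.74, 3.14, 2.82 and 3.32 in wild-type fasted mice. It read 4.02, 4.30, 4.30 and 3.73 in knockout fed and 3.73, 3.57 and 3.50 in knockout fasted mice. Fasted wild-type mice lay below all others, and 1 knockout fed mouse fell within the range of the knockout fasted mice. The changes were -1.14 ± 0.15 with fasting in wild-type and -0.49 ± 0.17 in knockout mice, 0.04 ± 0.16 between fed genotypes and 0.70 ± 0.16 between fasted genotypes, with a difference between responses of 0.66 ± 0.22. Without knockout fed mice 1 and 4 they were -0.70 with fasting in knockout mice, 0.25 between fed genotypes and 0.45 for the difference between responses. Because it matches 3 genes and its signal in fasted wild-type mice approached the dim limit, it cannot tell Hsd3b5 from its neighbours.

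**Figure D1:**
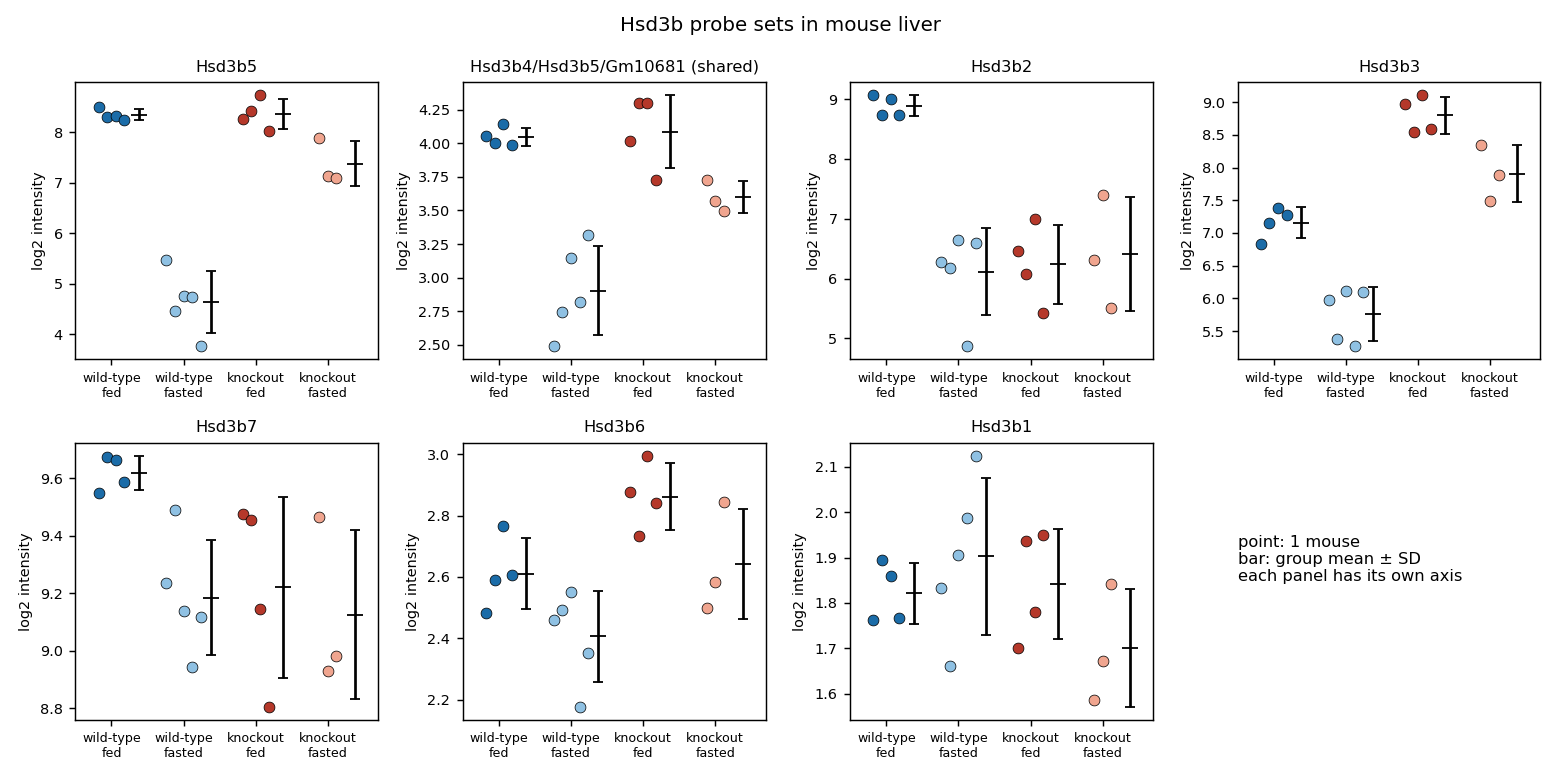
Log2 intensity of each Hsd3b probe set in every mouse, by group, with group mean and SD; each panel has its own vertical axis and 1 point is 1 mouse. Hsd3b5 drops from a mean of 8.34 to 4.64 with fasting in wild-type mice and from 8.37 to 7.38 in knockout mice, while Hsd3b2 is high only in wild-type fed mice among the 4 groups and Hsd3b3 is highest in knockout fed mice.

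Hsd3b2 had a different layout, with 1 high group out of 4. The wild-type fed mice read 9.07, 8.73, 9.01 and 8.74. The wild-type fasted mice read 6.28, 6.18, 6.65, 4.87 and 6.60, the knockout fed mice 6.45, 6.07, 6.998 and 5.42, and the knockout fasted mice 6.31, 7.40 and 5.52. Every wild-type fed mouse lay above every other mouse, and the other 3 groups overlapped, with means of 6.11 ± 0.73 (SD, n = 5), 6.24 ± 0.66 (n = 4) and 6.41 ± 0.95 (n = 3). Fasting changed Hsd3b2 by -2.77 ± 0.39 log2 in wild-type mice (6.84-fold lower) and by 0.17 ± 0.44 in knockout mice. The knockout differed from wild-type by -2.65 ± 0.41 in fed mice (6.28-fold lower) and by 0.30 ± 0.42 in fasted mice. The difference between the fasting responses was 2.95 ± 0.58, wider in error than that of Hsd3b5 because Hsd3b2 varied more between mice, with a residual SD of 0.67 log2 against 0.43. Without knockout fed mice 1 and 4 the genotype difference in fed mice was -2.35, the change with fasting in knockout mice was -0.12 and the difference between responses 2.65.

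Hsd3b3 was higher in knockout than in wild-type mice in both feeding states. Its values were 6.82, 7.16, 7.38 and 7.27 in wild-type fed and 5.97, 5.37, 6.11, 5.26 and 6.10 in wild-type fasted mice. They were 8.97, 8.54, 9.11 and 8.58 in knockout fed and 8.35, 7.48 and 7.89 in knockout fasted mice. No pair of groups overlapped, and the order of means ran from knockout fed (8.80 ± 0.28, SD, n = 4) through knockout fasted (7.91 ± 0.43, n = 3) and wild-type fed (7.16 ± 0.24, n = 4) to wild-type fasted (5.76 ± 0.41, n = 5). The knockout mice were 1.64 ± 0.22 log2 higher when fed (3.13-fold) and 2.14 ± 0.22 higher when fasted (4.42-fold). Fasting changed Hsd3b3 by -1.39 ± 0.21 log2 in wild-type and by -0.89 ± 0.24 in knockout mice, and the responses differed by 0.50 ± 0.31. Without knockout fed mice 1 and 4 the genotype difference in fed mice was 1.67, the change with fasting in knockout mice -0.92 and the difference between responses 0.47.

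Hsd3b2 and Hsd3b3, neighbours on the chromosome, thus moved in opposite directions between fed wild-type and fed knockout livers. The labels do not give the strain origin of this cluster in either genotype, so a strain difference at the locus or under a probe and the knockout cannot be told apart in any genotype difference of Hsd3b2, Hsd3b3 or Hsd3b5. The log2 ratio of the Hsd3b2 and Hsd3b3 probe sets on each array can show unequal change, though not which transcript was the more abundant. This ratio was 1.73 ± 0.35 (SD, n = 4; range 1.47 to 2.25) in wild-type fed and 0.35 ± 0.45 (n = 5; -0.40 to 0.80) in wild-type fasted mice. It was -2.57 ± 0.44 (n = 4; -3.16 to -2.11) in knockout fed and -1.50 ± 1.24 (n = 3; -2.38 to -0.08) in knockout fasted mice. The fed genotypes lay far apart on it, and knockout fasted mouse 2, with the highest Hsd3b2 and the lowest Hsd3b3 of its group, lay within the wild-type fasted range. Over the 16 arrays the 2 probe sets had a Pearson r of 0.04, and 0.35 after each group's mean was removed. These arrays fall into separate groups, so the first value describes the group means more than the mice.

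**Figure D2:**
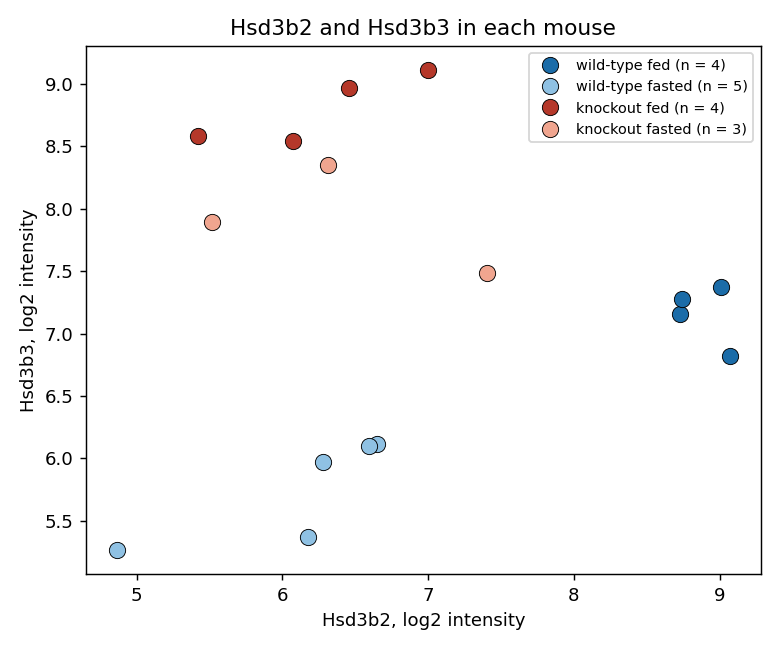
Log2 intensity of Hsd3b3 (vertical) against Hsd3b2 (horizontal), 1 point per mouse, coloured by group. The 4 wild-type fed mice lie to the right with Hsd3b2 of 8.73 to 9.07, the 4 knockout fed mice lie at the top left with Hsd3b3 of 8.54 to 9.11, and the 5 wild-type fasted mice lie at the bottom with Hsd3b3 of 5.26 to 6.11.

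Hsd3b7, the bile acid enzyme, moved little. It read 9.55, 9.67, 9.66 and 9.59 in wild-type fed and 9.24, 9.49, 9.14, 8.94 and 9.12 in wild-type fasted mice. It read 9.47, 9.46, 9.15 and 8.80 in knockout fed and 9.47, 8.93 and 8.98 in knockout fasted mice. The wild-type fed mice lay above every other mouse, and the other 3 groups overlapped. The change with fasting was -0.43 ± 0.14 in wild-type and -0.09 ± 0.16 in knockout mice, and the genotypes differed by -0.40 ± 0.15 when fed and by -0.06 ± 0.15 when fasted. The difference between responses was 0.34 ± 0.21. Without knockout fed mice 1 and 4 the difference between fed genotypes was -0.32, the change with fasting in knockout mice -0.17 and the difference between responses 0.26.

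Hsd3b6 and Hsd3b1, the forms known from steroid-making tissues, gave little signal in these livers. Hsd3b6 had group means of 2.61 ± 0.12 (SD, n = 4), 2.41 ± 0.15 (n = 5), 2.86 ± 0.11 (n = 4) and 2.64 ± 0.18 (n = 3) for fed and fasted wild-type and then fed and fasted knockout mice, around the dim limit of 2.61. Its largest change was 0.25 ± 0.10 between fed genotypes, where the groups overlapped. Hsd3b1 lay below the dim limit on all 16 arrays, at 1.59 to 2.12, with means of 1.82, 1.90, 1.84 and 1.70 in the same order. Its changes were no larger than 0.20 log2 in either direction in the fasting and genotype contrasts, and a probe set this dim can hide a change of the transcript.

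Set against all probe sets, the members' counts were as follows, where a call is an adjusted p under 0.05 in limma over the 23385 probe sets paired with a symbol. With fasting in wild-type mice, 4 of the 7 were called lower (Hsd3b5, Hsd3b2, Hsd3b3 and the shared pair) and none higher, beside 5.84% of all probe sets called lower and 3.14% called higher. In 5 of the 7 the fed and fasted wild-type mice did not overlap, beside 12.2% of all. With fasting in knockout mice 1 of 7 was called lower (Hsd3b3; 1.79% of all), none higher (1.85% of all), and 2 did not overlap (13.2% of all). Between fed genotypes 1 was called higher in the knockout (Hsd3b3; 0.496% of all) and 1 lower (Hsd3b2; 0.235% of all), and 3 did not overlap (6.75% of all). Between fasted genotypes 2 were called higher (Hsd3b3 and Hsd3b5; 0.278% of all), none lower (0.15% of all), and 3 did not overlap (8.22% of all). For the difference between fasting responses 1 was called, Hsd3b5, out of 2 of the 23385 probe sets that were called higher (0.00855%) and 0 that were called lower (0%), and with every probe set of the table in the fit Hsd3b5 was not called. Since the family was selected on these same contrasts, nothing is read from these shares.

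The median change of the 7 members was -1.14 with fasting in wild-type mice, where that of all probe sets was 0.02. It was -0.22 with fasting in knockout mice (all probe sets -0.01), 0.02 between fed genotypes (all 0.00255), 0.30 between fasted genotypes (all -0.02) and 0.50 for the difference between responses (all -0.02). The calls of Hsd3b5, Hsd3b2 and Hsd3b3 with fasting in wild-type mice, of Hsd3b3 in both genotype contrasts and of Hsd3b5 between fasted genotypes held in every alternative run. The call of the Hsd3b5 difference between responses was lost when any 1 of 10 of the 16 mice was left out: wild-type fed 2, 3 or 4, wild-type fasted 2, 3 or 4, knockout fed 1 or 4, or knockout fasted 2 or 3. The call of Hsd3b3 with fasting in knockout mice was lost without knockout fed 1, 3 or 4 or knockout fasted 2 or 3 (changes of -1.11 to -0.68 over all single mice left out). Hsd3b5 was called in that contrast without knockout fasted 1, Hsd3b7 was called with fasting in wild-type mice without wild-type fasted 2, and the shared pair was called between fasted genotypes without wild-type fasted 5. With knockout fed mice 1 and 4 left out together, Hsd3b2 between fed genotypes was no longer called.

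**Figure D3:**
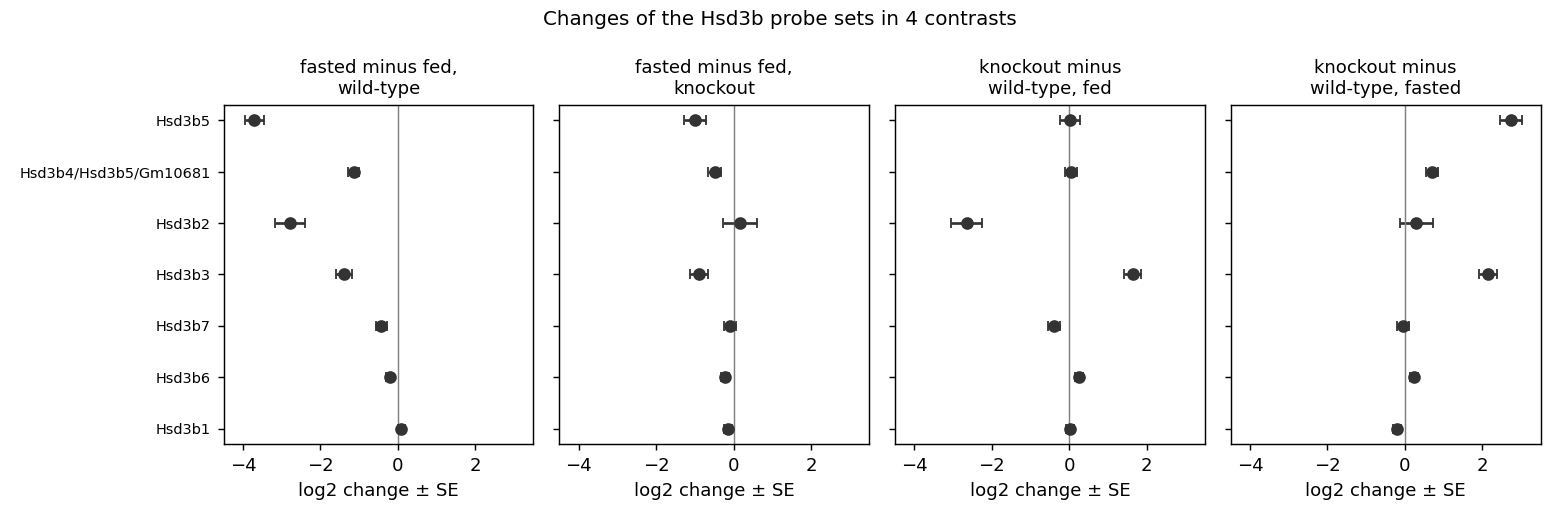
Log2 change with SE of each Hsd3b probe set in 4 contrasts, fasted minus fed in wild-type and knockout mice and knockout minus wild-type in fed and fasted mice; the vertical line marks no change. Hsd3b5 changes by -3.70 with fasting in wild-type mice and by -0.99 in knockout mice, and between fed genotypes Hsd3b2 (-2.65) and Hsd3b3 (1.64) lie on opposite sides of the line.

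The genes flanking the cluster on chromosome 3 are given as a description. They were looked at after the members' values had been seen, as the 10 measured genes on each side in the GRCm38.p6 order, of which 12 of 20 had a mean above the dim limit. None of the 20 was called by limma in any of the 5 contrasts. Of all probe sets, 5.84% were called lower and 3.14% higher with fasting in wild-type mice, and 1.79% and 1.85% in knockout mice. Between fed genotypes 0.235% were called lower and 0.496% higher, and between fasted genotypes 0.15% and 0.278%. For the difference between responses the shares were 0% and 0.00855%. With shares this low, no call among 20 genes does not set the flanking genes apart from other genes. At an unadjusted p under 0.05 there were 0 with fasting in wild-type mice, 1 with fasting in knockout mice, 1 between fed genotypes, 1 between fasted genotypes and 0 for the difference between responses. Their median change was 0.01 with fasting in wild-type mice, -0.00019 between fed genotypes and -0.04 between fasted genotypes.

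Other enzymes of steroid hormone metabolism changed in both directions with fasting in wild-type livers. Of 47 measured genes, 7 rose and 10 fell (24 at an unadjusted p under 0.05), with a median change of 0.03 against 0.02 for all probe sets. The gene lists used here were chosen with earlier results of these data known, so their counts and medians are a description. The largest rise was that of Cyp17a1, the 17-alpha-hydroxylase and 17,20-lyase that shares substrates with Hsd3b enzymes, by 2.79 ± 0.61 log2 (limma, adjusted p = 0.00795). It read 4.35, 6.75, 4.21 and 5.32 in wild-type fed and 9.67, 7.29, 8.22, 8.48 and 6.05 in wild-type fasted mice, so that these groups overlapped in 1 mouse each. In knockout mice it read 7.73, 8.38, 7.45 and 8.24 when fed and 8.71, 7.65 and 9.40 when fasted. The fed knockout mice were all above the fed wild-type mice, by 2.80 ± 0.65, which did not pass the test (adjusted p = 0.0577).

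Among the other genes of that list, Rdh16, a retinol and 3-alpha-hydroxysteroid dehydrogenase, rose by 1.37 ± 0.17 (limma, adjusted p = 1e-04), and Hsd17b10, a mitochondrial dehydrogenase of acyl-CoAs and steroids, by 1.04 ± 0.17 (adjusted p = 0.000771). Akr1c19, an aldo-keto reductase, rose by 0.75 ± 0.22 (adjusted p = 0.0412), a call that was lost without any 1 of 8 of the 9 wild-type mice, all but wild-type fasted 1. The largest falls were of Cyb5b, the outer mitochondrial cytochrome b5 (-0.93 ± 0.14, adjusted p = 0.000404), Dhrs9, a 3-alpha-hydroxysteroid dehydrogenase (-0.89 ± 0.19, adjusted p = 0.00602), and Hsd17b2, which oxidises estradiol and testosterone (-0.85 ± 0.11, adjusted p = 0.000135). Cyp7b1, the oxysterol 7-alpha-hydroxylase that is on all 3 lists used here, fell by 0.92 ± 0.24 (adjusted p = 0.0212), a call that was lost without wild-type fed 3 or 4 or wild-type fasted 2, 3 or 5.

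In knockout livers 3 genes of the steroid list rose with fasting and 4 fell (19 at an unadjusted p under 0.05). These 7 calls became 4 without knockout fed 1, 4 without knockout fed 4, 0 without both, 2 without knockout fasted 2 and 3 without knockout fasted 3. Rdh16 rose by 0.98 ± 0.20 (limma, adjusted p = 0.00999), Hsd17b11, a lipid droplet dehydrogenase, by 0.60 ± 0.13 (adjusted p = 0.0186), and Cyp2d9, a male-type testosterone 16-alpha-hydroxylase, by 0.45 ± 0.08 (adjusted p = 0.00539). The falls were of Dhrs9 (-0.95 ± 0.21, adjusted p = 0.0204), Cyb5b (-0.81 ± 0.16, adjusted p = 0.00786), Hsd17b12, a 3-ketoacyl-CoA and estrone reductase (-0.68 ± 0.16, adjusted p = 0.0218), and Hsd17b2 (-0.47 ± 0.12, adjusted p = 0.047). Hsd17b11 (0.64 ± 0.12, limma, adjusted p = 0.00231) and Hsd17b12 (-0.75 ± 0.14, adjusted p = 0.0023) were called with fasting in wild-type mice too. Their responses differed between genotypes by -0.04 ± 0.18 and 0.07 ± 0.21. No gene of this list was called by limma between genotypes in fed mice (8 of 47 at an unadjusted p under 0.05), in fasted mice (9 of 47) or for the difference between responses (9 of 47). Without wild-type fed 2, 1 was called between fed genotypes, and without wild-type fasted 1, 3 were called between fasted genotypes.

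Around Hsd3b7, 7 of 25 genes of bile acid synthesis rose with fasting in wild-type mice and 4 fell (16 at an unadjusted p under 0.05). Those with the largest rises were Cyp8b1, the 12-alpha-hydroxylase of cholic acid synthesis (0.96 ± 0.18, limma, adjusted p = 0.00226), Cyp39a1, a 24-hydroxycholesterol 7-alpha-hydroxylase (0.75 ± 0.17, adjusted p = 0.0104), Acot8, a peroxisomal thioesterase (0.73 ± 0.16, adjusted p = 0.00611), and Slc27a2, a very-long-chain acyl-CoA synthetase (0.65 ± 0.08, adjusted p = 9.38e-05). Besides Cyp7b1, the falls were of Cyp2c70, which makes the muricholic acids of mice (-1.80 ± 0.18, adjusted p = 9.12e-06), and of the hydroxysteroid dehydrogenases Akr1c14 (-0.61 ± 0.14, adjusted p = 0.0104) and Akr1c6 (-0.47 ± 0.09, adjusted p = 0.0036). In knockout mice Cyp8b1 (1.12 ± 0.20, adjusted p = 0.00528), Acot8 (0.67 ± 0.18, adjusted p = 0.0455) and Slc27a2 (0.57 ± 0.09, adjusted p = 0.00262) were called higher. None of the 25 was called lower (8 at an unadjusted p under 0.05). The 3 calls became 5 without knockout fed 3 and 1 without knockout fed 1 and 4. Cyp2c70 was lower in every knockout fasted mouse than in the knockout fed mice, by 0.71 ± 0.20, but did not pass the test (limma, adjusted p = 0.0616).

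Cyp2c70 was the 1 gene of the bile acid list called between genotypes, in fasted mice, where it was 1.24 ± 0.19 log2 higher in the knockout (limma, adjusted p = 0.00874). Its values ran from 10.81 to 11.15 in the 4 wild-type fed mice and were 9.18, 9.44, 9.82, 8.70 and 8.75 when wild-type mice were fasted. Knockout mice read 11.18, 11.06, 11.17 and 11.09 when fed and 10.62, 10.38 and 10.25 when fasted. Both fed groups overlapped, the knockout fasted mice lay below them, and the wild-type fasted mice lay lowest, which is the order of Hsd3b5. Its difference between fasting responses, 1.09 ± 0.27, did not pass the test (adjusted p = 0.171). None of the 25 was called by limma between fed genotypes (2 at an unadjusted p under 0.05) or for the difference between responses (7 at an unadjusted p under 0.05), and 5 had an unadjusted p under 0.05 between fasted genotypes, where 2 were called without wild-type fasted 1.

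Hsd3b5 is one of many liver genes with a sex-dependent pattern set by growth hormone. Of 39 measured genes of that pattern and its regulators, which included male-type and female-type genes, 4 rose and 11 fell with fasting in wild-type mice (21 at an unadjusted p under 0.05), with a median change of -0.24 against 0.02 for all probe sets. As the list pools these types and was chosen with earlier results of these data known, its counts and median are a description. The 15 calls became 8 without wild-type fed 3. The largest falls beside Cyp7b1 were of Nudt7, a peroxisomal coenzyme A hydrolase (-1.52 ± 0.18, limma, adjusted p = 5.59e-05), Elovl3, a male-type fatty acid elongase (-1.36 ± 0.21, adjusted p = 0.000583), and Cyp2u1, a fatty acid hydroxylase (-1.26 ± 0.17, adjusted p = 0.000234). Acot3, a peroxisomal thioesterase that is female-biased in liver, rose by 2.33 ± 0.24 (adjusted p = 1.32e-05), Cux2, a female-type repressor, by 0.57 ± 0.11 (adjusted p = 0.00377), and Hnf4a, a hepatocyte nuclear receptor, by 0.56 ± 0.13 (adjusted p = 0.00972). Cyp2d9 rose by 0.24 ± 0.07 (adjusted p = 0.0486), a call that was lost without any 1 of 8 of the 9 wild-type mice, all but wild-type fed 2.

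In knockout mice Acot3 (2.20 ± 0.27, limma, adjusted p = 0.000254), Cux2 (0.50 ± 0.13, adjusted p = 0.0428) and Cyp2d9 rose with fasting, and Onecut1, a liver transcription factor, fell (-2.09 ± 0.55, adjusted p = 0.0466), with 8 of 39 at an unadjusted p under 0.05. These 4 calls became 2 without knockout fed 1, knockout fed 4 or any 1 of the knockout fasted mice, and 1 without knockout fed 1 and 4 together. Onecut1 changed by -1.32 ± 0.49 with fasting in wild-type mice, which did not pass the test (limma, adjusted p = 0.109). Between fasted genotypes 2 of 39 were called, both higher in the knockout, and 12 had an unadjusted p under 0.05. The count was 0 without any 1 of the knockout fasted mice, 1 without wild-type fasted 2, 3, 4 or 5, and 5 without wild-type fasted 1. Slco1a1, a male-type organic anion transporter, read 9.09 to 9.57 (median 9.43) in wild-type fasted mice and 10.01, 10.21 and 9.88 in knockout fasted mice, a difference of 0.68 ± 0.14 (adjusted p = 0.0454). Cyp2f2, a male-type P450, read 10.56 to 10.92 (median 10.62) and 11.37, 11.30 and 11.28, a difference of 0.60 ± 0.10 (adjusted p = 0.0116). Neither pair of groups overlapped. No gene of this list was called by limma between fed genotypes (6 at an unadjusted p under 0.05) or for the difference between responses (9 at an unadjusted p under 0.05), though 1 was called between fed genotypes without knockout fed 2 and 1 for the difference between responses without knockout fed 3. Its median difference between responses was 0.21, against -0.02 for all probe sets and 2.72 for Hsd3b5.

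Of the 22 list genes named for fasting in wild-type mice, 19 kept their call under every single mouse left out and every other setting, the exceptions being Akr1c19, Cyp2d9 and Cyp7b1. Of the 13 named for fasting in knockout mice, 4 kept it under every single mouse left out (Acot3, Slc27a2, Cyp2d9 and Cyp8b1), and 2 of these, Acot3 and Slc27a2, also kept it under every other setting. Between fasted genotypes Cyp2c70 kept its call under every single mouse left out but lost it when only the groups compared were fitted, while Cyp2f2 lost it without any 1 of the knockout fasted mice and Slco1a1 without any 1 of 7 of the 8 fasted mice, all but wild-type fasted 1.

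The genes whose levels followed each member most closely over the 16 arrays were taken by Pearson r among 12892 genes above the dim limit, as a description. All arrays share the 4 groups, so r mainly reflects group means. Hsd3b5 was followed by Nudt7 (0.963), Hao1, a peroxisomal hydroxyacid oxidase (0.956), and Cyp2c70 (0.952). Relative to the wild-type fed mean, Nudt7 changed by -1.99 to -0.76 log2 in the 5 wild-type fasted mice, where Hsd3b5 changed by -4.58 to -2.86. The fasted genotypes overlapped for Nudt7, unlike for Hsd3b5. The shared pair was followed by Ttc39c (0.967), Cyp4f14, a leukotriene omega-hydroxylase (0.936), and Fam149a (0.935).

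Hsd3b3 was followed by Ifitm3 (0.931) and Ifit3 (0.929), both interferon-induced genes, and by Cyp2f2 (0.916). Ifitm3 had group means of 9.97 in wild-type fed, 9.11 in wild-type fasted, 10.55 in knockout fed and 9.83 in knockout fasted mice. Hsd3b2 was followed less closely, by Svil (0.871), Scnn1a (0.866) and Tmtc4 (0.859), whose wild-type fed means were also their highest. Hsd3b7 was followed by Tsc22d1 (0.915), Lonrf3 (0.884) and Pepd (0.869), and Hsd3b6, whose mean over all arrays lay just above the dim limit, by Anxa5 (0.928), Ifi203 (0.906) and Pik3r4 (0.891). Among the members themselves r was 0.84 between Hsd3b3 and Hsd3b6, 0.82 between Hsd3b3 and Hsd3b5 and 0.46 between Hsd3b2 and Hsd3b5. These became 0.42, 0.21 and 0.06 once group means were removed. Hsd3b5 and the shared pair, at 0.87 over all arrays, stood at -0.27 within groups.

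**Figure D4:**
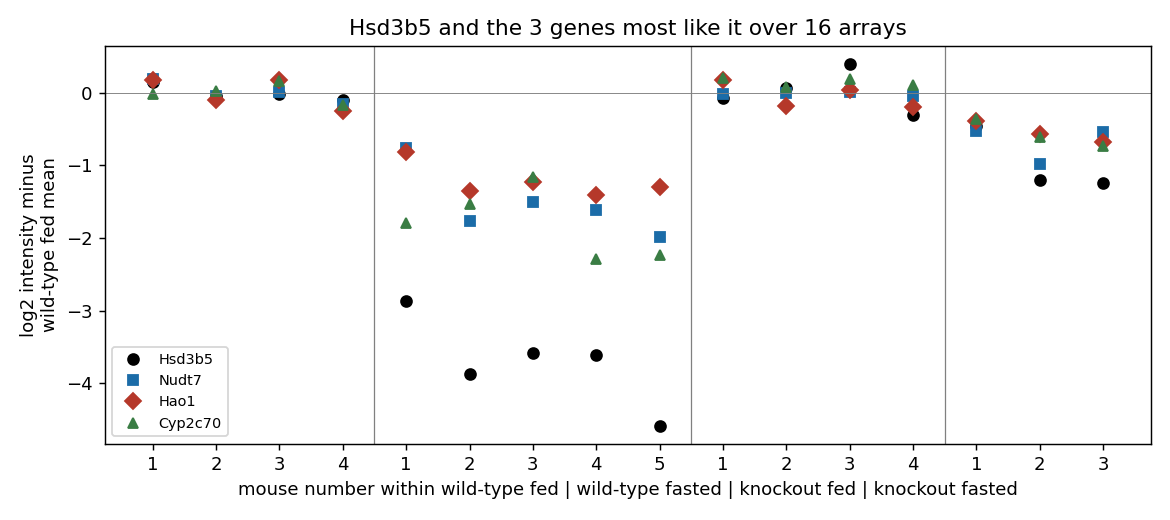
Log2 intensity minus the wild-type fed mean for Hsd3b5 and the 3 genes most like it, Nudt7, Hao1 and Cyp2c70, in each of the 16 mice; vertical lines part the groups. In wild-type fasted mice Hsd3b5 lies between -4.58 and -2.86 and Nudt7 between -1.99 and -0.76, and in knockout fasted mice Hsd3b5 lies between -1.24 and -0.45.

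The other PPAR genes were named for their levels. Ppara, the fasting-activated receptor of liver, read 7.84 ± 0.29 (SD, n = 4) in wild-type fed, 8.84 ± 0.17 (n = 5) in wild-type fasted, 7.61 ± 0.45 (n = 4) in knockout fed and 8.51 ± 0.07 (n = 3) in knockout fasted livers. Pparg read 4.71 ± 0.26, 4.50 ± 0.11, 4.34 ± 0.11 and 4.16 ± 0.12 in the same order.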

How the data were processed

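The authors deposited 1 normalized intensity per probe set and array, made with RMA per the submitters' processing notes. As to the array's build and the software version, neither is given in the sources used here. The intensities were linear (array medians 8.08 to 8.61), and log2 was taken here. Of 35519 probe sets, 21780 were paired with 1 symbol and 1605 with several, and these 23385 entered 1 limma fit of 4 group means (limma 3.58.1, R 4.3.3, eBayes without trend, 12 residual and 4.35 prior degrees of freedom). Tests were two-sided, with Benjamini-Hochberg adjustment over all 23385 within each contrast and a threshold of 0.05.

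The members and the gene lists were chosen with earlier results of these data known. A list gene was its brightest probe set with that symbol alone. For each list and contrast, the called genes with the up to 4 largest rises and 4 largest falls were named, with the 3 genes most like each member whose mean was above the dim limit. Listed genes without such a probe set (6 of 53 on the steroid list) were not analysed here. For knockout fasted mice there are 3 arrays here, fewer than the 4 to 5 mice per group of the design text. Promoters were aligned with Biopython 1.88 (local, match 1, mismatch 1, gap opening 3 and extension 1). Protein sequences were not used here. The fits were tested on simulated data. The alternatives were other normalizations, filters, probe set choices and variance models, array weights, a replicate block, fits of only the groups compared, and mice left out. The number of arrays limits the precision.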

Additional observations from a re-analysis of the deposited data

Results flagged for a closer look

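In groups of 4 or 5 mice, the extreme mouse was compared with the nearest other by its gap over the range of the group (Dixon's test). Of 114 groups tested, 4 were marked, and chance marks about 1 in 20 groups. Hsd3b2 in wild-type fasted mouse 4 was 4.87 log2, where the other mice of the group read 6.18 to 6.65. Rdh16 in knockout fed mouse 3 was 6.30, with the others at 5.91 to 5.97. Akr1c19 in wild-type fasted mouse 1 was 6.42, with the others at 7.51 to 7.75. The summed pancreas markers in wild-type fasted mouse 5 were 8.51, with the others at 5.95 to 6.48. In that mouse Hsd3b5 was the lowest of its group (3.76) and the shared pair the highest (3.32). The part of the pancreas signal in these values was not tested. The change of Hsd3b5 with fasting in wild-type mice was -3.91 to -3.48 over all single mice left out. Leaving out wild-type fasted mouse 5 gave the smallest fall of these runs, -3.48.

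The fasting response of Hsd3b5 differed between genotypes by 2.72 log2 (knockout minus wild-type), by the interaction contrast of the limma fit. The gene was chosen with this contrast known, so the value is a description.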

How the results depend on the processing

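The number of members called was 4 with fasting in wild-type mice and stayed within 1.5 times of that in every alternative run. With fasting in knockout mice it was 1 and became 0 with every probe set of the table, with only the groups compared and without knockout fed mice 1 and 4, 2 with array weights and 2 with the replicate block, and 0 to 2 with single mice left out. For the difference between responses it was 1 and became 0 with every probe set, with an intensity trend and robust variance and without knockout fed mice 1 and 4, and 0 to 1 with single mice left out. Between fed genotypes it was 2 and became 1 without knockout fed mice 1 and 4.

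Of the list genes, 13 were called with fasting in knockout mice, 2 without knockout fed mice 1 and 4, and 5 to 15 with single mice left out. Between fasted genotypes 3 were called, 5 with dim probe sets left out, 6 with array weights, and 1 to 8 with single mice left out. Between fed genotypes none was called, 1 with dim probe sets left out, 1 with only the groups compared, and 0 to 1 with single mice left out. For the difference between responses none was called, and 0 to 1 with single mice left out. The causes were not tested.

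Hsd3b2 with fasting in knockout mice, not called in any setting, was 0.17 and took the other sign with the replicate block (-0.06), without knockout fed mice 1 and 4 (-0.12) and without some single mice (-0.32 to 0.62 over all of them). Over 21 pairs of same-numbered mice from different groups, the correlation of their deviations from the group means ran from -0.21 to 0.21, and 5 were over 0.1. Pairs with different numbers ran from -0.29 to 0.25. With so few mice per group these values cannot exclude a weak pairing by replicate number, and the main fit used none. With the replicate block, the change of Hsd3b5 with fasting in knockout mice was -1.05 and passed the threshold, and 3 members in place of 2 were called between fasted genotypes. By Spearman's rho the gene most like Hsd3b5 was again Nudt7, and Cyp2c70 ranked 40th. The genes named for Hsd3b2 ranked 22nd (Svil), 18th (Scnn1a) and 48th (Tmtc4). Those for Hsd3b3 ranked 48th (Ifitm3), 6th (Ifit3) and 15th (Cyp2f2). Those for the shared pair ranked 1st (Ttc39c), 5th (Cyp4f14) and 87th (Fam149a). Signal limits Hsd3b1 and Hsd3b6, whose levels lay below or around the dim limit.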
